A study of Homo sapiens with 9 samples.

Results

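Transcripts of 48 genes that act in G2 phase, mitotic entry, spindle function and chromosome segregation were measured in MOLT4 cells, an established human cell line of T-cell acute lymphoblastic leukemia. The genes came as a list of symbols, matched exactly to the rows of the deposited table, and no measured value entered the match. The list itself was chosen with earlier results of these data known. All 48 were found among 23621 gene rows. All 48 also lay among the 12301 genes that averaged 1 FPKM or more (fragments per kilobase of transcript, scaled to the fragments of the library) over the 9 libraries, which were the genes tested.

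The 9 libraries formed 3 groups of 3, each made after 6 h of treatment: libraries titled MI-389, libraries titled sunitinib, and libraries of cells given 0.1% DMSO, the solvent. MI-389 is a phthalimide conjugate by the series' design text, and sunitinib is an inhibitor of receptor tyrosine kinases. The labels of the treated libraries contradict each other. The source field of the libraries titled MI-389 names sunitinib at 1 µM, and that of the libraries titled sunitinib names MI-389 at 0.1 µM. Groups follow the titles, which match the barcode list and the table's columns. If the source field were right, the compound names below would change places. The dose differed between the treated groups along with the compound, so the effects of dose and compound cannot be told apart. No genotype or other agent distinguished the groups. Nothing in the labels says that replicates came from different cultures. The p-values therefore reflect the spread of these libraries alone, which may be technical.

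In proliferating cells, entry into mitosis is driven by CDK1 bound to B-type cyclins, with the Polo and Aurora kinases acting beside it. Kinetochores attach chromosomes to spindle microtubules, and the spindle checkpoint holds back the anaphase-promoting complex (APC/C) until every chromosome is attached. The APC/C then marks securin and cyclin B for destruction, which frees separase to release the sister chromatids. Many of these genes are transcribed late in the cell cycle. In studies of human cells, the MuvB core with B-MYB or FOXM1 activates them through a promoter element named the cell cycle genes homology region (CHR), and NF-Y binds nearby CCAAT boxes.

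Promoter windows of 300 bases, from 250 before to 50 after the transcription start in RefSeq (GRCh38.p14), were found for 41 of the 48 genes. Those of AURKA, FOXM1, BUB3, TTK, BIRC5, TPX2 and UBE2C were not analysed here. Where several windows were listed for a gene, the first was used. Windows were searched on both strands for the CHR as TTTGAA and the CCAAT box as CCAAT, with no other variant of either. Windows are printed for 5 genes, the 3 that fell most in the libraries titled MI-389 and the 2 that rose. Capitals mark both motifs, also where they read on the opposite strand (TTCAAA and ATTGG), and no base of these windows belonged to both motifs. The windows are those of INCENP at chr11:62123761-62124060, PLK1 at chr16:23678639-23678938, KIF20A at chr5:138178862-138179161, NDC80 at chr18:2571307-2571606 and SMC4 at chr3:160399400-160399699, all on the plus strand and read 5′ to 3′. The window of SMC4 is the first of 2.
INCENP: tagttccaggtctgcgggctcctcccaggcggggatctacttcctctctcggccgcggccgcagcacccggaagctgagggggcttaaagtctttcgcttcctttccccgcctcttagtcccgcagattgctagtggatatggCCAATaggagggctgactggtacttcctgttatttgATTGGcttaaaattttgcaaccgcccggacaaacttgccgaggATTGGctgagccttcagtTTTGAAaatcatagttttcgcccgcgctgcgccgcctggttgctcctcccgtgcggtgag
PLK1: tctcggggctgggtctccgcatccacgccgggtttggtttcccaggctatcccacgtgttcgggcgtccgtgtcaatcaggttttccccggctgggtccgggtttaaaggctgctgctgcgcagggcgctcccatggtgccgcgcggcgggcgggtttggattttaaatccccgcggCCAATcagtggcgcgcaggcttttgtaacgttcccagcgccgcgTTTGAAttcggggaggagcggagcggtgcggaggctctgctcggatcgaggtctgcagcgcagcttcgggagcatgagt
KIF20A: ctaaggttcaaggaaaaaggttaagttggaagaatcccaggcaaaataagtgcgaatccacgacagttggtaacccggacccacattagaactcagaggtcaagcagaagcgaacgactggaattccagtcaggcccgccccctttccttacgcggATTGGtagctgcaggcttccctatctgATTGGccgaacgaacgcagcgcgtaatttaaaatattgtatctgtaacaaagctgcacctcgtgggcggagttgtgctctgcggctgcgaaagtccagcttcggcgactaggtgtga
NDC80: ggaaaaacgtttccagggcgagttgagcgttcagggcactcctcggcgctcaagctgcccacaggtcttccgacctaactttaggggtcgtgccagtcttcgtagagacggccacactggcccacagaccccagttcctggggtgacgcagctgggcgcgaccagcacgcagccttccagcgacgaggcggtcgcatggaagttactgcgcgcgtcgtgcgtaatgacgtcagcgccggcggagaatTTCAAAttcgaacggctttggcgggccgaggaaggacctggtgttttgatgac
SMC4: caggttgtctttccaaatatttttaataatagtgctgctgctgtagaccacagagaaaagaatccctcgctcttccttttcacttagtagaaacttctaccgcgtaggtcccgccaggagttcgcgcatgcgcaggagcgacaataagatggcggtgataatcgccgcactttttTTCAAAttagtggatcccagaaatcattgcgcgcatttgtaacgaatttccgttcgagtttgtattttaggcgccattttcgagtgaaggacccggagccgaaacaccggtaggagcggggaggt
The CHR began at −10 in INCENP, −29 in PLK1, −3 in NDC80 and −75 in SMC4, counted in bases from the start site, and KIF20A held no TTTGAA on either strand. INCENP had 3 CCAAT boxes, KIF20A 2 and PLK1 1, while NDC80 and SMC4 had none.

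Over the genes with a window, 30 of 41 (73.2%) held a CHR, against 12.1% of the windows of 15843 protein-coding genes. A CCAAT box was present in 30 of 41 (73.2%), against 36.4% of those windows. A CHR together with at least 2 CCAAT boxes was found in 13 of 41 (31.7%), against 1.69%. Over all 27305 genes with a window the shares were 15.4%, 35.7% and 1.83%. These matches describe letters in a window and were not tested as binding sites.

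All 48 genes were expressed, with means in DMSO that spanned 20.0 ± 1.65 FPKM for KIF14 to 517 ± 41.6 FPKM for PTTG1 (SD, n = 3). FPKM is a value per transcript length, so levels can be compared between genes only approximately, and less so where exons overlap those of other genes. UBE2C (349.8 ± 34.2 FPKM), MAD2L1 (336 ± 14.3) and TOP2A (294 ± 25.4) followed PTTG1 at the high end. CDC25C (21.2 ± 2.81), KIF18A (29.5 ± 0.593) and ESPL1 (30.5 ± 2.46) stood beside KIF14 at the low end. In this order UBE2C and MAD2L1 did not differ beyond their spread, nor did KIF14 and CDC25C or KIF18A and ESPL1.

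All 15 markers of T-lineage leukemia had a mean of at least 1 FPKM, while all 8 myeloid markers were below it. The B-cell markers BLK, CD79A and CD79B were above it, at means over the 9 libraries of 48.5, 8.07 and 2.20 FPKM, as was KRT8 among 8 epithelial and fibroblast markers, at 1.65 FPKM. Total read counts were not used here, as the table holds FPKM only. Steps between low values put the depth of the libraries titled MI-389 at 1.39 times, and that of the libraries titled sunitinib at 1.35 times, that of DMSO, from 79 and 94 gene pairs. The DMSO libraries differed among themselves: DMSO replicate 1 was the lowest of them in 39 of the 48 genes and DMSO replicate 3 the highest in 44. The libraries titled MI-389 had a median log2(FPKM + 1) over the 48 genes of 6.28, 6.16 and 6.27, against 6.40, 6.35 and 6.38 for sunitinib by title and 6.37, 6.56 and 6.66 in DMSO. DMSO replicate 1 thus lay among the libraries titled sunitinib, and results against DMSO are given with and without it.

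**Figure D1:**
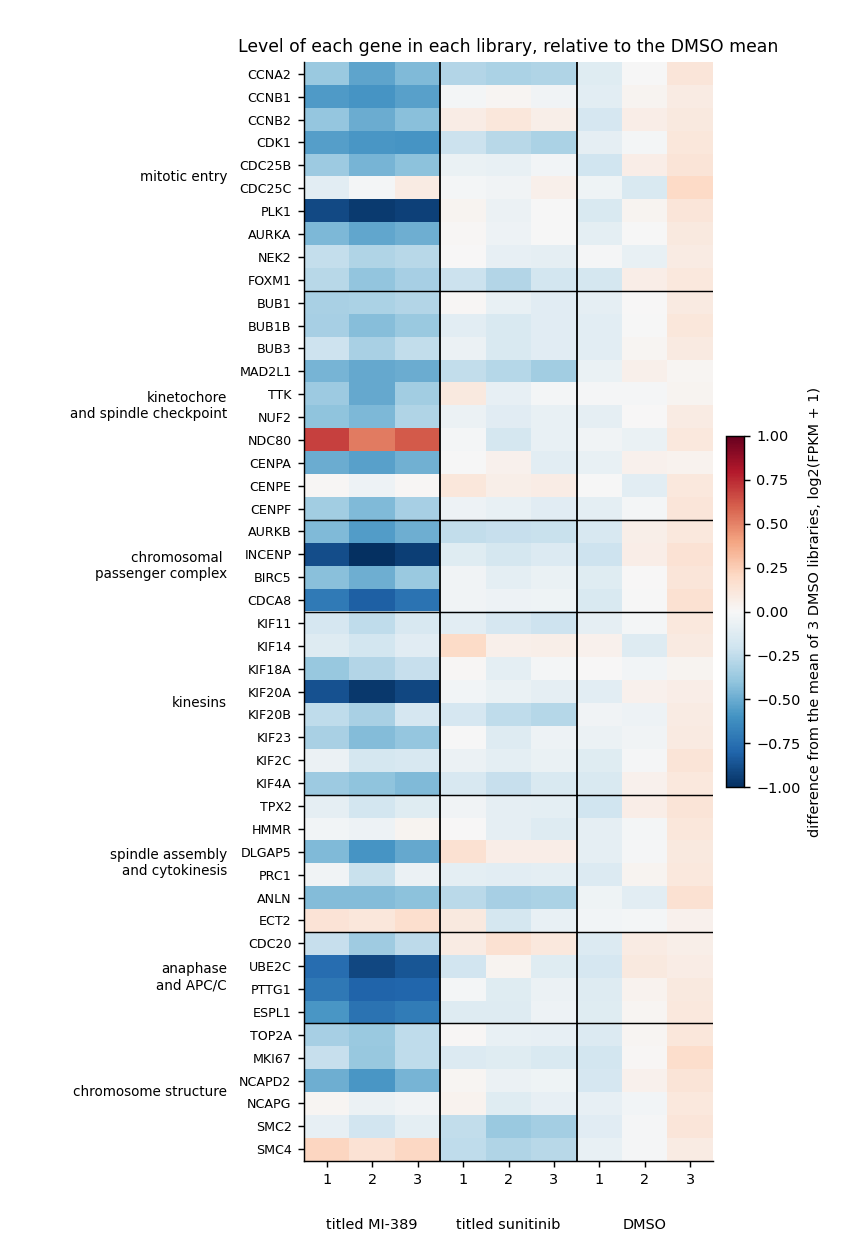
Level of each of the 48 genes (rows, by role) in each of the 9 libraries (columns, replicates 1 to 3 of each group), as the difference in log2(FPKM + 1) from the mean of the 3 DMSO libraries. Blue cells are lower and red cells higher than that mean. The libraries titled MI-389 are blue in most rows, with NDC80 and SMC4 red, and DMSO replicate 1 is paler or bluer than DMSO replicate 3 in most rows.

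The libraries titled MI-389 were compared with DMSO to describe which mitotic genes differed after 6 h. Of the 48 genes, 36 fell (75%), 2 rose and 10 did not pass limma's test at a Benjamini-Hochberg adjusted p of 0.05. Over all 12301 genes tested, 28.3% fell and 28.5% rose. The median log2 difference of the 48 genes was −0.38, against −0.002 over all genes. The falls were moderate, from 1.15-fold for KIF11 to 1.98-fold for INCENP in mean FPKM. In each of the 36 genes that fell, the 3 libraries titled MI-389 all lay below the 3 DMSO libraries, an order that 29.7% of all genes showed. In 3 genes they all lay above, as in 30.5% of all genes. A smaller share of cells in G2 and mitosis and less RNA per such cell cannot be told apart in these bulk libraries. Without DMSO replicate 1, 40 of the 48 genes fell, against 33.2% of all genes.

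Among the genes of mitotic entry, 9 of 10 fell, with a median log2 difference of −0.44. PLK1, the Polo-like kinase that acts at centrosomes, kinetochores and the midbody, had 65.1, 62.8 and 63.7 FPKM in the libraries titled MI-389, against 110.4, 125 and 133 FPKM in DMSO. All 3 treated libraries lay far below the lowest DMSO library. The log2 difference was −0.93 (SE 0.07), a 1.93-fold fall (limma with Benjamini-Hochberg adjustment, adjusted p = 4.64e-06). CDK1, the kinase that drives mitotic entry, had 183, 179.7 and 179 FPKM in the libraries titled MI-389, against 253, 266 and 291 in DMSO. It fell 1.49-fold (−0.57 ± 0.06, log2 difference and SE; limma adjusted p = 3.59e-05). CCNB1, cyclin B1 and a partner of CDK1, fell by the same factor, to 163 ± 2.74 FPKM in the libraries titled MI-389 against 243 ± 16.3 in DMSO (limma adjusted p = 2.73e-05).

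The other falls of mitotic entry genes were smaller. AURKA, the Aurora kinase of the spindle poles, fell 1.41-fold to 88.6 ± 2.37 FPKM, against 125 ± 8.43 FPKM in DMSO (limma adjusted p = 7.53e-05). FOXM1, a transcription factor of G2/M genes, fell 1.27-fold to 70.5 ± 2.81 FPKM, against 89.4 ± 9.20 (limma adjusted p = 0.00395). CCNA2 (cyclin A2), CCNB2 (cyclin B2), CDC25B (a phosphatase that activates CDK1) and NEK2 (a kinase of centrosome separation) fell by 1.21-fold to 1.37-fold. CDC25C, a second phosphatase that activates CDK1, did not pass: it had 19.5, 20.8 and 22.3 FPKM in the libraries titled MI-389 and 20.4, 18.8 and 24.3 FPKM in DMSO, and the groups overlapped. Its log2 difference of −0.01 had a 95% interval of −0.21 to 0.18 (limma adjusted p = 0.906), and 10.7% of its exonic bases overlap FAM53C on the other strand, which this library type cannot separate.

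All 4 subunits of the chromosomal passenger complex fell. This complex carries the Aurora B kinase to centromeres and then to the central spindle. INCENP, its scaffold, had 31.3, 28.1 and 30.1 FPKM in the libraries titled MI-389, against 50.7, 61.5 and 65.0 FPKM in DMSO. INCENP had the largest fall of the 48 genes, 1.98-fold (−0.95 ± 0.09; limma adjusted p = 1.52e-05), and the groups were far apart although its DMSO libraries were spread. CDCA8 (borealin) fell 1.70-fold, to 59.2 ± 2.30 FPKM against 101 ± 10.6 FPKM in DMSO (limma adjusted p = 2.23e-05). AURKB, the kinase itself, fell 1.42-fold, to 105 ± 4.16 against 148 ± 14.4 FPKM (limma adjusted p = 0.000255). BIRC5 (survivin) had 148 ± 5.95 FPKM against 199 ± 16.7 FPKM in DMSO and also fell.

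All 4 genes of anaphase onset fell as well, with a median log2 difference of −0.72. PTTG1 (securin, the inhibitor of separase) had 314, 296 and 297 FPKM in the libraries titled MI-389, against 471, 530.2 and 551 FPKM in DMSO. It fell 1.71-fold (limma adjusted p = 1.24e-05), with no overlap. PTTG2 and PTTG3P, near copies of PTTG1 that can share its reads, had means of 0.830 and 0.268 FPKM in the libraries titled MI-389 and 2.10 and 0.440 FPKM in DMSO, so they were far below PTTG1. UBE2C, the ubiquitin-conjugating enzyme of the APC/C, fell 1.80-fold, to 194 ± 10.4 FPKM against 349.8 ± 34.2 FPKM in DMSO (limma adjusted p = 2.99e-05). ESPL1 (separase, the protease that cuts cohesin) fell 1.63-fold, to 18.7 ± 1.15 against 30.5 ± 2.46 FPKM (limma adjusted p = 3.44e-05). CDC20, an activator of the APC/C, showed the smallest fall of these genes, 1.22-fold (−0.28 ± 0.07; limma adjusted p = 0.00509), and its call was lost after quantile normalization and cyclic loess.

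Of 10 kinetochore and checkpoint genes 8 fell and NDC80 rose. NDC80, whose product binds spindle microtubules at the outer kinetochore, had 92.8, 83.0 and 88.7 FPKM in the libraries titled MI-389, against 56.0, 55.0 and 61.8 FPKM in DMSO. Every library titled MI-389 stood above every DMSO library, and NDC80 was 1.53-fold higher (0.61 ± 0.07; limma adjusted p = 5.42e-05). The other subunits of the same complex fell: NUF2 had 87.2 ± 4.49 FPKM against 114 ± 6.90 FPKM in DMSO (−0.38). SPC24 had 25.0 ± 2.14 FPKM in the libraries titled MI-389, against 58.7 ± 5.15 FPKM in DMSO (−1.20, limma adjusted p = 5.41e-06). SPC25 had 51.7 ± 1.18 against 91.6 ± 4.18 FPKM (−0.81, limma adjusted p = 1.42e-06). NDC80 thus moved against all 3 of its partners.

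The checkpoint genes moved together. MAD2L1 (MAD2) had 243, 236 and 237 FPKM in the libraries titled MI-389, against 320.1, 347 and 341 FPKM in DMSO, with no overlap and a 1.41-fold fall. BUB1, a checkpoint kinase, fell 1.25-fold, to 107 ± 1.15 against 134 ± 8.17 FPKM (limma adjusted p = 0.00112). BUB1B (BUBR1), BUB3 and TTK (MPS1), also of the checkpoint, fell by 1.20-fold to 1.34-fold, and the call of BUB3 was lost after quantile normalization and cyclic loess. CENPA, the histone H3 variant of centromeres, had 49.1 ± 1.15 FPKM against 70.2 ± 3.31 FPKM in DMSO, and CENPF, an outer kinetochore protein, had 55.6 ± 2.31 against 72.4 ± 5.68 FPKM; both fell. CENPE, a kinetochore kinesin, stood at 32.6 ± 0.832 against 32.9 ± 2.50 FPKM and did not pass (−0.01, 95% interval −0.14 to 0.12; limma adjusted p = 0.893).

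Among 8 kinesins of the spindle, 6 fell. KIF20A (MKLP2), which brings the passenger complex to the central spindle, had 28.2, 26.3 and 27.4 FPKM in the libraries titled MI-389, against 48.6, 54.0 and 55.0 FPKM in DMSO. It fell 1.92-fold (−0.92 ± 0.06; limma adjusted p = 1.91e-06), and the groups did not overlap. The other 5 that fell did so by 1.15-fold to 1.34-fold: KIF11 (Eg5, which separates the spindle poles), KIF18A (which damps chromosome movement), KIF20B, KIF23 (MKLP1, of the central spindle) and KIF4A (a chromokinesin). KIF14, a kinesin of cytokinesis, had 18.2, 17.5 and 18.4 FPKM in the libraries titled MI-389 and 20.6, 18.1 and 21.3 FPKM in DMSO, and KIF2C (MCAK), a microtubule depolymerase, had 98.8 ± 4.65 and 109 ± 9.32 FPKM. Neither passed limma's test, at an adjusted p of 0.106 for KIF14 and 0.116 for KIF2C. With median centring all 8 kinesins fell, KIF14 and KIF2C among them, where 40.3% of all genes fell. After quantile normalization and after cyclic loess 7 of the 8 fell, where 35.7% and 32.4% of all genes fell.

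**Figure D2:**
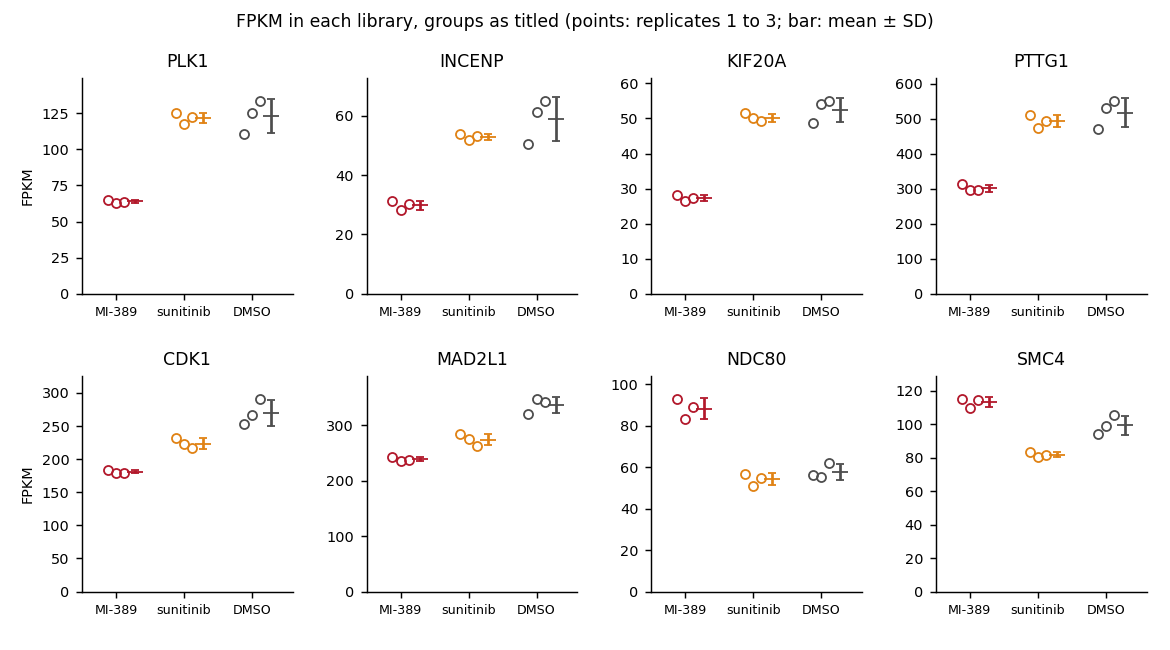
FPKM of 8 of the genes in each library (points), with the mean and SD of each group (bars, n = 3) and every axis starting at 0. PLK1, INCENP, KIF20A and PTTG1 are low in the libraries titled MI-389 alone, CDK1 and MAD2L1 are lower in both treated groups than in DMSO, NDC80 is high in the libraries titled MI-389, and SMC4 is highest there and lowest in those titled sunitinib.

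Of the genes of spindle assembly and cytokinesis 2 of 6 fell (33.3%, near the 28.3% over all genes). Their median log2 difference of −0.12 was the closest to 0 of the 7 role classes. DLGAP5 (HURP), which stabilizes kinetochore microtubules, had 85.4, 76.9 and 81.1 FPKM in the libraries titled MI-389, against 109, 115 and 125 FPKM in DMSO. ANLN (anillin), of the contractile ring, had 25.2, 25.1 and 25.5 against 33.2, 31.9 and 38.2 FPKM. Both fell, with no overlap between the groups. TPX2, which activates AURKA on the spindle, had 245, 230.5 and 240.0 FPKM in the libraries titled MI-389 and 228, 274 and 286 FPKM in DMSO, and DMSO replicate 1 lay below all treated libraries. Its log2 difference of −0.13 did not pass (limma adjusted p = 0.183). Without DMSO replicate 1 TPX2 fell, at −0.23 (limma adjusted p = 0.000892), whereas after cyclic loess it was higher, at 0.12 (limma adjusted p = 0.00261).

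The other 3 genes of this class also stood near their DMSO level. HMMR, a spindle-binding protein, had 67.0 ± 1.94 FPKM against 67.8 ± 5.07 FPKM in DMSO (−0.02, 95% interval −0.16 to 0.13; limma adjusted p = 0.850). PRC1, which crosslinks microtubules of the central spindle, had 71.4 ± 4.93 against 76.9 ± 6.58 FPKM (−0.11, 95% interval −0.27 to 0.06; limma adjusted p = 0.236). ECT2, the activator of RhoA in cytokinesis, had 41.6, 40.7 and 42.4 FPKM in the libraries titled MI-389, against 36.9, 37.2 and 38.8 FPKM in DMSO. The groups of ECT2 did not overlap, yet its log2 difference of 0.14 did not pass (limma adjusted p = 0.108).

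Genes of chromosome structure split. NCAPD2, a regulatory subunit of condensin I, had 103, 97.1 and 105 FPKM in the libraries titled MI-389, against 129.5, 149.8 and 159.6 FPKM in DMSO, and fell. SMC4, an ATPase core subunit of the condensins, had 115, 109.6 and 115 FPKM against 94.0, 98.7 and 105 FPKM, and rose 1.14-fold (0.19 ± 0.05; limma adjusted p = 0.0131). SMC4 was higher in every library titled MI-389 than in any DMSO library, the reverse of NCAPD2. SMC2, the partner of SMC4, had 68.1 ± 2.76 FPKM, against 74.5 ± 6.31 FPKM in the DMSO libraries, and did not pass (−0.13, limma adjusted p = 0.147). NCAPG, a further condensin I subunit, had 86.4 ± 2.28 against 88.1 ± 6.13 FPKM (−0.03, 95% interval −0.17 to 0.12; limma adjusted p = 0.756). NCAPH, of the same complex but not among the 48 genes, stood at −0.15 (limma adjusted p = 0.0597).

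Exons that overlap those of other genes limit some of these values, and the kit does not mark strand. In the GENCODE annotation (release 29) TRIM59 overlaps 23.9% of the exonic bases of SMC4 on the other strand, at a mean of 17.8 FPKM over the 9 libraries, LCORL 35.0% of those of NCAPG at 7.19 FPKM, and MRPL51 8.35% of those of NCAPD2 at 610.4 FPKM. PRC1 shares the most, 65.2% of its exonic bases with AC068831.7 on the same strand and 8.01% with PRC1-AS1 on the other, whose values were not analysed here. Reads from such neighbours cannot be separated from these genes. TOP2A, the topoisomerase that untangles sister chromatids, fell 1.25-fold, to 235 ± 9.70 FPKM against 294 ± 25.4 FPKM in DMSO (limma adjusted p = 0.00309; not called after cyclic loess). MKI67 (Ki-67), which coats mitotic chromosomes, fell 1.23-fold, to 75.5 ± 4.24 against 92.8 ± 11.8 FPKM (limma adjusted p = 0.0158; 0.0618 without MI-389 replicate 2).

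The libraries titled sunitinib were then compared with the same DMSO libraries. Of the 48 genes, 8 fell (16.7%) and 0 rose, by limma with Benjamini-Hochberg adjustment, and at an unadjusted p under 0.05 the counts were 11 and 0. Over all genes tested, 16.9% fell and 2.37% rose, so the share of mitotic genes that fell was near the background. The median log2 difference of the 48 genes was −0.07, against −0.10 over all genes. The 8 genes were spread over 6 of the 7 role classes, with none in anaphase onset. The libraries titled sunitinib lay wholly below DMSO in 11 of the 48 genes, an order shown by 29.3% of all genes, and wholly above in 0, against 5.89%.

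The falls were small, from 1.18-fold to 1.25-fold. MAD2L1 had 284, 275 and 263 FPKM in the libraries titled sunitinib, against 320.1, 347 and 341 FPKM in DMSO (−0.29 ± 0.05; limma adjusted p = 0.00678). SMC4 had 83.2, 80.4 and 81.9 FPKM against 94.0, 98.7 and 105 FPKM (−0.28 ± 0.05; limma adjusted p = 0.00919). In both genes each treated library was below each DMSO library, and these 2 calls held in every alternative and with each library left out. CDK1 had 232, 223 and 216 FPKM, against 253, 266 and 291 FPKM in DMSO (−0.27 ± 0.06; limma adjusted p = 0.0143). CCNA2 had 173 ± 1.18 against 214 ± 17.9 FPKM (−0.30, limma adjusted p = 0.0143), and SMC2 had 59.5 ± 2.83 against 74.5 ± 6.31 FPKM (−0.32, limma adjusted p = 0.0135). ANLN (−0.31, limma adjusted p = 0.0131), KIF20B (−0.23, 0.0273) and AURKB (−0.23, 0.0451) completed the 8 genes.

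Of the 8 genes that fell most in the libraries titled MI-389, CDK1 also fell in those titled sunitinib and the other 7 did not pass there. INCENP was at −0.15 (limma adjusted p = 0.262) and ESPL1 at −0.10 (limma adjusted p = 0.325), while UBE2C (−0.10), PTTG1 (−0.06) and CDCA8 (−0.04) had limma adjusted p from 0.457 for UBE2C to 0.737 for CDCA8. PLK1 had 125, 117 and 123 FPKM in the libraries titled sunitinib, against 110.4, 125 and 133 FPKM in DMSO, and the groups overlapped (−0.01, 95% interval −0.16 to 0.14; limma adjusted p = 0.925). KIF20A had 51.4, 50.0 and 49.2 FPKM against 48.6, 54.0 and 55.0 FPKM (−0.06, 95% interval −0.19 to 0.07; limma adjusted p = 0.485). Among genes with smaller falls, CCNB1 (241 ± 4.61 against 243 ± 16.3 FPKM, limma adjusted p = 0.891) and AURKA (123 ± 2.73 against 125 ± 8.43 FPKM, limma adjusted p = 0.895) each had a log2 difference of −0.01. The libraries of PLK1, KIF20A, CCNB1 and AURKA overlapped between the groups, and their signs depended on the scaling: all 4 were above DMSO after quantile normalization, after cyclic loess and with median centring.

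The remaining genes named for every comparison also did not pass. FOXM1 had 76.5, 72.7 and 78.3 FPKM in the libraries titled sunitinib, against 78.9, 93.2 and 96.0 FPKM in DMSO, and just missed the threshold (−0.23, limma adjusted p = 0.0592). CDC20 was 291 ± 7.45 against 269.7 ± 22.1 FPKM (0.11, 95% interval −0.04 to 0.26; limma adjusted p = 0.263). BUB1 (−0.06), TPX2 (−0.08), TOP2A (−0.05), MKI67 (−0.14) and CENPE (0.08) had log2 differences whose limma adjusted p ran from 0.285 for MKI67 to 0.653 for TOP2A.

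These counts moved with single libraries of both groups. Without sunitinib replicate 2 or replicate 3, 2 of the 48 genes fell, and without DMSO replicate 1, 18 fell (32.1% of all genes). The share over all genes is not given here for the left-out sunitinib libraries, so that drop cannot be read as particular to these genes. After quantile normalization and after cyclic loess 9 fell and 10 rose, and with median centring 8 fell and 5 rose. Over all genes the share that rose was 2.37% as deposited, 10.3% with median centring, 13.8% after quantile normalization and 15.1% after cyclic loess.

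**Figure D3:**
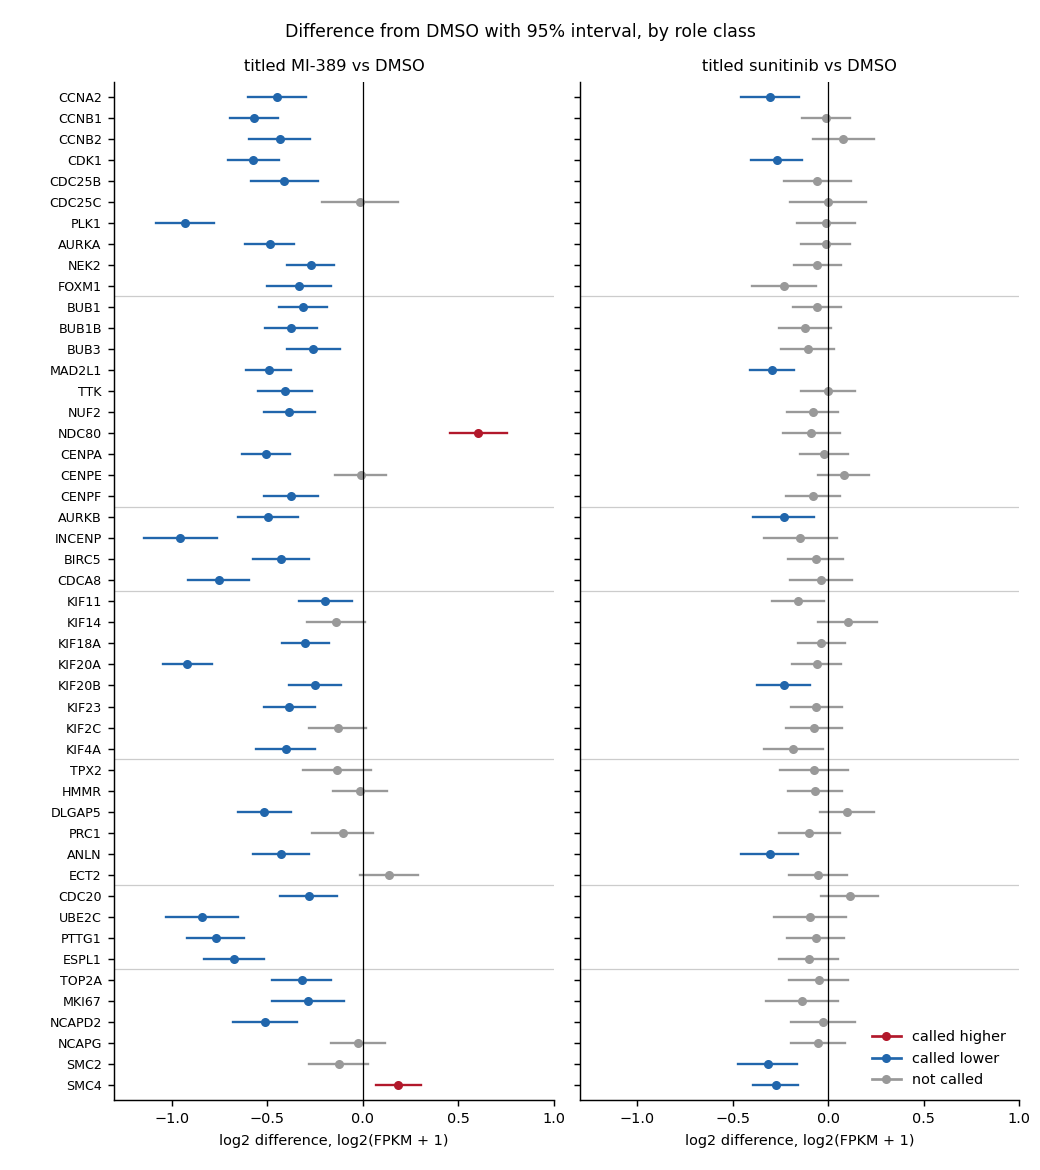
Log2 difference on the log2(FPKM + 1) scale with its 95% interval for each of the 48 genes, libraries titled MI-389 against DMSO (left) and libraries titled sunitinib against the same DMSO libraries (right), in the order of the role classes. Blue genes fell, red rose and grey did not pass limma's adjusted p of 0.05. On the left 36 genes are blue and NDC80 and SMC4 red, while on the right 8 are blue and most intervals include 0.

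The difference between the treated groups was tested directly in the same model. Of the 48 genes, 30 were lower in the libraries titled MI-389 than in those titled sunitinib (62.5%) and 4 were higher, against 20.3% lower and 36% higher over all genes. The median log2 difference was −0.26, against 0.08 over all genes. The 3 libraries titled MI-389 lay below all those titled sunitinib in 35 of the 48 genes, an order shown by 27% of all genes, and above in 4, against 42.5%. PLK1 differed most, at −0.92 (SE 0.07; limma adjusted p = 4.9e-06), a 1.90-fold lower mean. KIF20A (−0.86), INCENP (−0.81), UBE2C (−0.74), CDCA8 (−0.72), PTTG1 (−0.71) and DLGAP5 (−0.61) came next, with limma adjusted p from 3.01e-06 for KIF20A to 6.15e-05 for UBE2C.

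All 4 genes each of the passenger complex and of anaphase onset were lower in the libraries titled MI-389 than in those titled sunitinib. CDC20 had 229, 210.4 and 224 FPKM in the libraries titled MI-389, against 285, 299 and 290.0 FPKM in those titled sunitinib (−0.40, limma adjusted p = 0.000732). CCNB1 was lower by 1.47-fold (limma adjusted p = 3.09e-05), AURKA by 1.39-fold (8.83e-05), AURKB by 1.20-fold (0.00989), BUB1 by 1.20-fold (0.00370) and TOP2A by 1.21-fold (0.00761). CDK1, which fell against DMSO in both treated groups, was also lower in the libraries titled MI-389 than in those titled sunitinib (−0.30, 95% interval −0.44 to −0.17; limma adjusted p = 0.00178).

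NDC80 had 92.8, 83.0 and 88.7 FPKM in the libraries titled MI-389, against 56.8, 50.8 and 54.8 FPKM in those titled sunitinib, a 1.63-fold difference (0.69 ± 0.07; limma adjusted p = 2.36e-05). SMC4 was 1.38-fold higher (0.46 ± 0.05; limma adjusted p = 6.69e-05), with 115, 109.6 and 115 FPKM against 83.2, 80.4 and 81.9 FPKM. Neither gene's groups overlapped. SMC2 (68.1 ± 2.76 against 59.5 ± 2.83 FPKM, limma adjusted p = 0.0367) and ECT2 (41.5 ± 0.854 against 36.4 ± 3.62 FPKM, limma adjusted p = 0.0360) were also higher, each by 0.19 on the log2 scale, and both calls were lost without a filter on low values and with median centring. FOXM1 (−0.10), MKI67 (−0.15), CENPE (−0.09) and TPX2 (−0.06) did not pass, with limma adjusted p from 0.161 for MKI67 to 0.567 for TPX2. All 4 had negative log2 differences, and TPX2 turned to 0.03 after quantile normalization and 0.05 after cyclic loess.

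Other genes of mitosis, taken from 5 further lists with 105 tested genes, were measured in the same libraries. Of the 105, 48 fell and 20 rose in the libraries titled MI-389 against DMSO (median log2 difference −0.15), shares of 45.7% and 19.0% against 28.3% and 28.5% over all genes. With median centring 74 fell and 18 rose, where 40.3% of all genes fell and the median over all genes was −0.08. In the libraries titled sunitinib 40 fell (38.1%, against 16.9% over all genes), with a median of −0.16. Without DMSO replicate 1, 65 fell in those libraries, where 32.1% of all genes fell. Between the treated groups 30 were lower and 32 higher in the libraries titled MI-389 (28.6% and 30.5%, against 20.3% and 36% over all genes; median −0.003). Scaling to the spike-in RNA gave a like balance (30 lower and 35 higher). The log2 offsets of the spike-in RNA were −0.04 to 0.06 in the deposited libraries, so this scaling could change little. Cyclic loess gave 47 lower and 32 higher, quantile normalization 51 and 29, and median centring 62 and 25. Under cyclic loess, quantile normalization and median centring the median over all genes was −0.01, −0.04 and −0.08, against 0.08 as deposited. The APC/C list had 7 of 17 lower (41.2%) and 3 higher (17.6%) in the libraries titled MI-389 against DMSO. With median centring 12 were lower, where 40.3% of all genes were. As deposited, FBXO5 (EMI1, an APC/C inhibitor, −0.46), FZR1 (CDH1, an activator, −0.45) and CDC26 (a subunit, −0.42) fell most. The median of the APC/C list, −0.16, turned to 0.03 after cyclic loess.

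Of 29 further kinetochore and centromere genes, 14 fell (48.3%) and 8 rose (27.6%, near the 28.5% over all genes) in the libraries titled MI-389 against DMSO. SPC24 fell most, while CENPL, a protein of the inner kinetochore, rose to 37.8 ± 1.67 FPKM against 20.8 ± 1.49 FPKM in DMSO (0.83, limma adjusted p = 3.24e-05). In the libraries titled sunitinib 16 of the 29 fell (55.2%, against 16.9% over all genes). Among 15 condensin and cohesin genes 3 fell and 3 rose in the libraries titled MI-389, each 20% and below the 28.3% and 28.5% over all genes. With median centring 10 fell and 3 rose, where 40.3% of all genes fell. Without DMSO replicate 1, 6 fell and 3 rose, where 33.2% of all genes fell. The 3 that rose as deposited were WAPL (listed as WAPAL), which releases cohesin (0.53), STAG1 (0.40) and RAD21 (0.40), both cohesin subunits.

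Of 31 spindle, centrosome and cytokinesis genes, 15 fell (48.4%) and 4 rose (12.9%) in the libraries titled MI-389, against 28.3% and 28.5% over all genes. With median centring 23 fell, where 40.3% of all genes fell. As deposited, PSRC1 (−0.92), SPAG5 (astrin, −0.60) and ASPM (−0.59), all proteins of the spindle, differed most. PSRC1 had 35.9, 32.6 and 32.1 FPKM in the libraries titled MI-389, against 61.0, 60.2 and 71.5 FPKM in DMSO, with no overlap. Among 13 further regulators of mitotic entry 9 fell (69.2%) and 2 rose (15.4%), led by CKS2, a CDK-binding protein that had 501 ± 24.7 FPKM against 889 ± 58.1 FPKM in DMSO (−0.83). PBK, a mitotic kinase (−0.81), and CCNF, cyclin F (−0.72), followed. In the libraries titled sunitinib 6 of these 13 fell (46.2%, against 16.9% over all genes). CDC25A (−0.62), PKMYT1 (−0.49) and WEE1 (−0.43) led, a phosphatase and 2 kinases that set the activity of cyclin-dependent kinases.

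Genes of G1/S and DNA replication gave a contrast within the same libraries. Of 44, 29 fell (65.9%) and 2 rose in the libraries titled MI-389 against DMSO (median −0.34), and 41 fell (93.2%) in those titled sunitinib (median −0.44), against 28.3% and 16.9% over all genes. RRM2, a subunit of ribonucleotide reductase, had 193, 189 and 198 FPKM in the libraries titled MI-389, 149, 147 and 139 FPKM in those titled sunitinib and 234, 252 and 264 FPKM in DMSO. It fell in both treated groups and lay lowest in those titled sunitinib (−0.37 and −0.78 against DMSO). CCNE2, cyclin E2, had 31.2 ± 0.774 FPKM in the libraries titled MI-389, 43.3 ± 2.39 FPKM in those titled sunitinib and 73.3 ± 4.92 FPKM in DMSO. Between the treated groups 10 of the 44 were lower (22.7%, near the 20.3% over all genes) and 22 higher (50%, against 36% over all genes) in the libraries titled MI-389, with a median of 0.15. With median centring 19 were lower and 15 higher (median −0.02). Of the 48 G2/M and spindle genes 30 were lower and 4 higher as deposited, and 43 lower and 2 higher with median centring. Over all genes the median of this comparison was 0.08 as deposited and −0.08 with median centring.

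**Figure D4:**
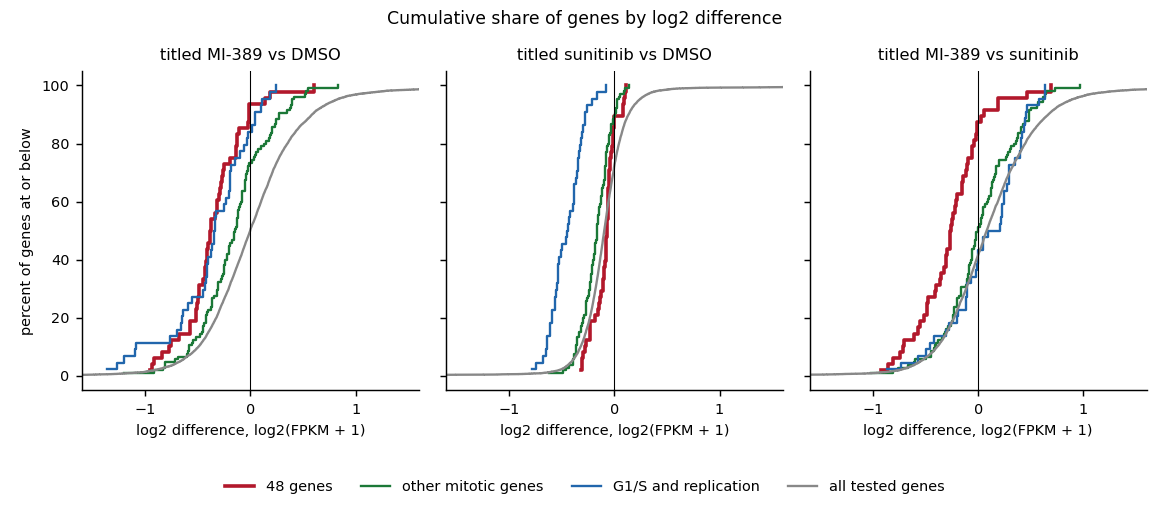
Percent of genes (vertical axis) at or below a given log2 difference (horizontal axis, log2(FPKM + 1) scale, beyond which the curve of all genes runs on) in 3 comparisons. The 48 genes lie left of all tested genes in both panels that include the libraries titled MI-389. In the middle panel the G1/S and replication genes lie farthest left, at a median of −0.44, while the 48 genes are close to all genes, at −0.07 against −0.10.

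Of 13 genes of the MuvB, MYB, E2F and pocket protein families, which regulate this transcription, 5 fell (38.5%) and 3 rose (23.1%) in the libraries titled MI-389 against DMSO, against 28.3% and 28.5% over all genes. LIN37, a MuvB subunit, rose to 31.3 ± 2.07 FPKM against 18.3 ± 2.75 FPKM in DMSO (0.75, limma adjusted p = 0.000315). MYBL1 (A-MYB; −0.65) and TFDP1 (a dimer partner of E2F; −0.54) fell. In the libraries titled sunitinib 6 of the 13 fell (46.2%, against 16.9% over all genes). MYBL1 had 4.98 ± 0.659 FPKM there, against 8.62 ± 0.711 FPKM in DMSO (−0.69).

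The promoter windows were set beside these differences as a description, grouped after the differences were known. Genes with and without the CHR letters TTTGAA had similar medians against DMSO: −0.38 (30 genes, 22 lower, 2 higher) and −0.41 (11 genes, 8 lower) for MI-389 by title, and −0.08 and −0.06 for sunitinib. Variants of the CHR were not searched, so genes without TTTGAA may still hold a CHR. Of the 30 genes with a CCAAT box 26 fell in the libraries titled MI-389 (median −0.42). Of the 11 without one 4 fell and 2 rose (median −0.13). The 2 that rose are NDC80 and SMC4, whose windows are printed above with a CHR and no CCAAT box. CDC25B, CDC25C, CENPE and KIF2C held neither motif in the window used, and of these CDC25B fell and the other 3 did not pass. The windows of CDC25B and CDC25C were each the first of 4, and their other windows were not used. No test was made of these splits.

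The direction of the comparison with the libraries titled MI-389 did not turn on the scaling, as the plot of medians by setting shows. The median of the 48 genes against DMSO ran from −0.46 with median centring to −0.26 after cyclic loess, and 35 to 42 genes fell under the 4 other scalings. Of these, rescaling to the spike-in RNA could change little, as its log2 offsets were −0.04 to 0.06. In the class of spindle assembly and cytokinesis the median was −0.01 after cyclic loess, near 0. Of the 38 genes called in this comparison, 33 kept call and direction under every alternative and with each library left out. The exceptions were BUB3, CDC20, KIF11, MKI67 and TOP2A.

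**Figure D5:**
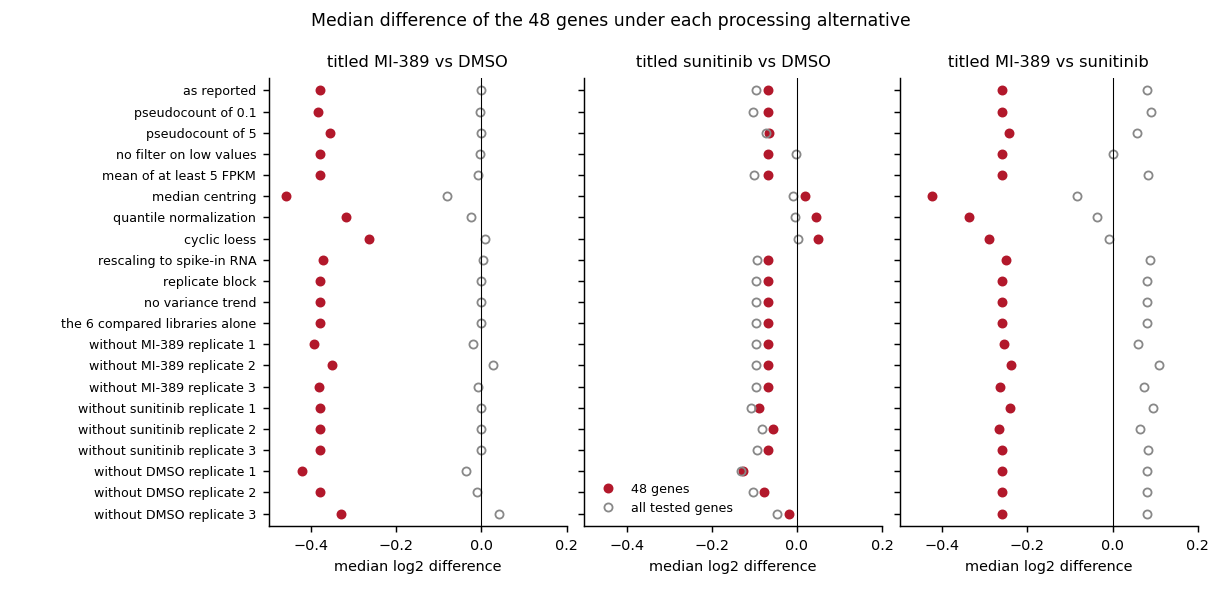
Median log2 difference of the 48 genes (filled points) and of all tested genes (open points) as reported and under each processing alternative or left-out library (rows), in the 3 comparisons. The filled points stay left of the open ones in both comparisons that include the libraries titled MI-389. Against DMSO the median of the libraries titled sunitinib lies on either side of 0, from −0.13 without DMSO replicate 1 to 0.05 after cyclic loess.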

How the data were processed

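Polyadenylated RNA of MOLT4 cells was extracted with spike-in RNA added by cell number and made into SMARTer libraries, per the labels' protocols. The authors deposited one FPKM value per gene symbol and library, normalized between libraries by the authors in a way not given in the sources used here. HISAT, Cufflinks 2.0.0 and hg19 are named, per the submitters' processing notes. The 48 genes and all other lists were chosen with earlier results of these data known.

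From the deposited FPKM, the 12301 genes that averaged 1 FPKM or more over 9 libraries were tested on log2(FPKM + 1), which understates changes of low genes, with limma 3.58.1 in R 4.3.3. The model held all 9 libraries in 3 groups, and let the variance follow the level; tests were two-sided, adjusted over all tested genes by Benjamini-Hochberg; "rose" and "fell" mean an adjusted p of at most 0.05. Spike-in rows (92) were left out. Folds are ratios of mean FPKM. Both comparisons with DMSO share the same 3 libraries. The model was tested on simulated data with independent noise in each gene and library. That setting does not cover shifts shared by many genes of a library, as in DMSO replicate 1.

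Values with error and adjusted p were given for the 8 called genes with the largest differences in each comparison, for 13 genes in every comparison (CCNB1, CDK1, PLK1, AURKA, AURKB, BUB1, CENPE, KIF20A, TPX2, CDC20, TOP2A, MKI67, FOXM1), for every gene called in the libraries titled sunitinib, for genes not called or against the majority in those titled MI-389, and for up to 3 called genes of each further list and comparison; NCAPH was added after its values were seen. The settings varied were the pseudocount (0.1 or 5), the filter (none, or 5 FPKM), the scaling (cyclic loess, median centring, quantile normalization, rescaling to 16 spike-in RNAs), a replicate block, no variance trend, the 6 compared libraries alone, and each library left out in turn. Some marker genes are not reported here. Depth is unknown beyond the estimate in the text. Gene coordinates and promoters are from GRCh38, a build other than the authors', and were used for neighbours and motifs only. Figures were drawn with matplotlib 3.10.9.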

Additional observations from a re-analysis of the deposited data

How the results depend on the processing

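The medians and counts of the 48 genes against DMSO in the libraries titled MI-389 kept their direction under all 11 alternatives and with each library left out. Among the alternatives, rescaling to the spike-in RNA could change little, as its offsets were small. The median of the 48 genes was −0.26 after cyclic loess. With a library left out it ran from −0.42 to −0.33, with 34 to 40 genes lower and 2 higher.

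Against DMSO in the libraries titled sunitinib, 4 genes fell with the 6 compared libraries alone. The share over all genes is not given here for that setting, so this count cannot be read as particular to these genes. With median centring 5 rose, and 10 each after quantile normalization and cyclic loess, where 10.3%, 13.8% and 15.1% of all genes rose. The median was 0.018 with median centring, 0.044 after quantile normalization and 0.049 after cyclic loess. With a library left out 2 to 18 genes fell and 0 rose, with medians of −0.13 to −0.019. Shares over all genes are given here only for DMSO replicate 1 left out, so this range cannot be read as particular to these genes. The cause was not tested.

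Between the treated groups 2 genes were higher without a filter on low values and 2 with median centring, and the median was −0.42 with median centring. With a library left out 28 to 33 genes were lower and 2 to 4 higher, with medians of −0.27 to −0.24. For these left-out libraries the shares over all genes are not given here. Over all genes, those lower in the libraries titled MI-389 than in DMSO were 28.3% as deposited, 40.3% with median centring, 35.7% after quantile normalization and 32.4% after cyclic loess.

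Some genes turned sign under other scalings. In the libraries titled sunitinib against DMSO, the values with median centring, after quantile normalization and after cyclic loess were 0.073, 0.12 and 0.13 for CCNB1, 0.074, 0.11 and 0.11 for PLK1, 0.073, 0.12 and 0.12 for AURKA, 0.028, 0.082 and 0.073 for BUB1, 0.025, 0.047 and 0.044 for KIF20A, 0.011, 0.056 and 0.065 for TPX2 and 0.038, 0.066 and 0.091 for TOP2A. In the libraries titled MI-389 against DMSO, TPX2 was 0.089 and 0.12 and NCAPG 0.036 and 0.063 after quantile normalization and cyclic loess, and HMMR was 0.030 after cyclic loess. Between the treated groups TPX2 was 0.033 and 0.052.

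With single libraries left out, CDC25C ranged over −0.092 to 0.084, CENPE ranged over −0.064 to 0.042, HMMR ranged over −0.063 to 0.041 and NCAPG over −0.067 to 0.029 in the libraries titled MI-389 against DMSO. In those titled sunitinib, CCNB1 ranged over −0.068 to 0.026, PLK1 ranged over −0.087 to 0.048, AURKA ranged over −0.061 to 0.036 and TOP2A over −0.12 to 0.0078. The cause was not tested.

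Same-numbered libraries were not paired by the labels, and their deviations correlated at −0.04 to 0.11. With a replicate block 36, 7 and 30 genes were lower in the 3 comparisons in the order above.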
